A study of Mus musculus with 13 samples.

Results

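The genes described here encode the nuclear subunits of the mitochondrial respiratory chain and ATP synthase, measured by mRNA sequencing in mouse perivascular adipose tissue, which is the fat lying around vessels. Members were chosen by name only. They comprise symbols beginning with Ndufa, Ndufb, Ndufc, Ndufs, Ndufv (without the assembly factors Ndufaf), Sdha to Sdhd, Uqcr, Cox4 to Cox8 and Atp5. Cox7a1, Cox8b and names with the ending -ps were left out. This gave 86 members of the 34013 genes in the count table, of which 41 belong to complex I, 4 to complex II, 8 to complex III, 16 to complex IV and 17 to complex V. The low-count filter passed 84 of the 86. The other members, Ndufa11b and Cox7b2, reached at most 0.0853 and 0.0629 CPM (counts scaled to library size, here with the TMM factor of edgeR). That is below or near what 3 counts are worth in a library, which ranged from 0.0811 to 0.211 CPM.

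The 13 libraries came from mice on a C57BL/6 background that received splenocytes. WTS-R (n = 3) received them from wild-type donors, NS-R (n = 3) from Nlrp3 knockout donors, TS-R (n = 4) from donors with type 2 diabetes (T2DM), and NTS-R (n = 3) from Nlrp3 knockout donors with T2DM. The genotype label of each sample is WT for WTS-R and TS-R and Nlrp3 KO for NS-R and NTS-R, without saying if donor or recipient is meant. The labels used here give no age, sex, diabetes model or cell number, and name no group without transferred cells. They also do not say that the samples of a group came from separate animals, so each p-value measures the spread between these samples, which may be technical. Levels of Nlrp3 itself, the gene knocked out, were 0.641, 0.252 and 0.707 CPM (WTS-R), 0.995, 0.462 and 1.57 (NS-R), 0.455, 1.22, 2.94 and 1.10 (TS-R), and 1.21, 0.534 and 0.403 (NTS-R). The knockout-labelled libraries were not lower than the others, so the level of Nlrp3 in this tissue does not separate the labels.

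Complex I passes electrons from NADH to ubiquinone, complex II does so from succinate, complex III passes them on to cytochrome c, and complex IV to oxygen. Complexes I, III and IV pump protons, and complex V, the ATP synthase, uses the gradient to make ATP. Complexes I, III, IV and V mix subunits made from nuclear genes with subunits made from mitochondrial DNA, whereas complex II is wholly nuclear. In brown and beige fat, including much of the fat around the thoracic aorta, the same chain feeds heat production through Ucp1.

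Promoters of these genes are known for sites of NRF1 and of ETS factors such as GABP. RefSeq promoter windows (GRCm38.p6, 250 bases before to 50 bases after the start) were matched for 67 of the 86 members. The NRF1 core, spelled GCGCA, then any base, then GCGC, and searched on both strands like the others, was in 16 of the 67 windows (23.9%) and in 1293 of 27025 windows of all genes (4.78%). The ETS core CCGGAAG was in 15 of 67 (22.4%) and in 2465 of 27025 (9.12%). The YY1 core AAGATGGCG was in 6 of 67 (8.96%) against 404 of 27025 (1.49%), and CCAAT in 29 of 67 (43.3%) against 10248 of 27025 (37.9%). Each motif was searched by itself, so occurrences of different motifs may overlap. The 120 bases before the start are printed for 5 members described below, from complexes I, III and IV. Of these, Ndufa3, Cox6a1, Cox7b and Cox8a lay wholly below WTS-R in TS-R, and Uqcrh overlapped it, with TS-R replicate 1 the highest of the 13 libraries. Capitals mark NRF1 or ETS cores on either strand. The windows are Ndufa3 at chr7:3617253-3617372 (plus strand), Uqcrh at chr4:116075071-116075190 (minus), Cox6a1 at chr5:115348959-115349078 (minus), Cox7b at chrX:106015580-106015699 (plus) and Cox8a at chr19:7217617-7217736 (minus).
Ndufa3: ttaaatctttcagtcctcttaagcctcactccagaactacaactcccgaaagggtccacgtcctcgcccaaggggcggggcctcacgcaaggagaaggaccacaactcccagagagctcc
Uqcrh: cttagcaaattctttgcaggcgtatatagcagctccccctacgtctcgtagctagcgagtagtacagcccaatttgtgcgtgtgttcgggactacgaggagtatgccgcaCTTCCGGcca
Cox6a1: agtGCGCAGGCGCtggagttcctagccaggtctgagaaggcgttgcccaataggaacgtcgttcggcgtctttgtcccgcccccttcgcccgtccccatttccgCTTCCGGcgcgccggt
Cox7b: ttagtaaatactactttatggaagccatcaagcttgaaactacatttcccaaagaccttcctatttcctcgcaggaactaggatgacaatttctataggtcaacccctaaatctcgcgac
Cox8a: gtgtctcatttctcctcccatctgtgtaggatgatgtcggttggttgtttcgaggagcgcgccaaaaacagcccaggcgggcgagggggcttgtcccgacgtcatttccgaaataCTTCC
Uqcrh holds 1 ETS core, Cox6a1 an ETS core and an NRF1 core within the printed bases, and Cox8a an ETS core that runs past their end. Neither core is in the printed bases of Ndufa3 or Cox7b. These are matches of letters, and no binding was measured.

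Library totals lay between 14216706 counts, in NTS-R replicate 3, and 37011122, in NS-R replicate 1. Members took 3.83% to 4.72% of all counts in WTS-R, 2.89% to 4.11% in NS-R, 1.5% to 5.27% in TS-R and 2.82% to 3.76% in NTS-R. The lowest share was in TS-R replicate 3 and the highest in TS-R replicate 1, so the 4 TS-R libraries spanned the whole range of the series. These 2 libraries stand apart for most members, and the member medians of comparisons with TS-R are given with and without each of them. Medians of other gene lists are given only with all libraries. Adipocyte markers, 10 of 10 of which passed the filter, summed to 20175 to 22414 CPM in WTS-R, 15265 to 20183 in NS-R, 5101 to 19540 in TS-R and 19213 to 21907 in NTS-R. The lowest sum was in TS-R replicate 3, and the next lowest in TS-R replicate 2, at 14305 CPM. Ucp1, the brown fat uncoupler, was at 303 to 4367 CPM.

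Per kilobase of exon, the most abundant member over the 13 libraries was Cox6a1 (1582 ± 613 CPM per kb, SD, n = 13), followed by Cox6b1 (1145 ± 336), Atp5b (994 ± 273), Cox8a (985 ± 333) and Cox4i1 (961 ± 294). These neighbours in the order lie within each other's spread. The median member stood at 414 CPM per kb in complex III, 319 in complex II, 269 in complex IV, 167 in complex I and 160 in complex V. Among tested members Ndufb2 was lowest, at 2.18 ± 0.505 CPM per kb, with an exon union of 5628 bases. A union counts all annotated exons of a gene, so the order and these medians depend on the lengths used. In CPM other members were lower, such as Ndufb4c (mean 7.18 in WTS-R, against 13.2 for Ndufb2).

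Diabetic donors' splenocytes (TS-R) went with lower levels of the chain as a whole than wild-type ones (WTS-R), with a median log2 fold change of -0.61 over the 84 members and 0.03 over all 17270 genes tested. The fitted value was negative for 83 members (47.6% of all genes) and 0.00 for Atp5g1, and ran down to -1.33 for Ndufb4c. Complex medians were alike: -0.63 for complex I, -0.73 for II, -0.66 for III, -0.67 for IV and -0.56 for V. No member passed a false discovery rate (FDR) of 0.05 in edgeR's quasi-likelihood test, nor did any gene of the table in the lower direction (0.0%). The lowest FDR of a member in edgeR was 0.0684, for Cox7c. At an unadjusted p under 0.05, 31 members were lower, where 7.07% of all genes were. In bulk tissue, fewer cells of a type and less RNA per cell cannot be told apart.

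In 29 of the 84 members (34.5%) all 4 TS-R libraries lay below all 3 WTS-R libraries, a separation found in 8.15% of all genes. Complex I held 15 of its 40 tested members among them, complex II 3 of 4, complex III 3 of 8, complex IV 4 of 15 and complex V 4 of 17. In 0 members did TS-R lie wholly above WTS-R (8.96% of all genes). DESeq2 called 9 members lower at an adjusted p under 0.05 (1.97% of all genes): Ndufa1, Ndufa3, Ndufb4, Sdhc, Cox6a1, Cox7b, Cox7c, Cox8a and Atp5s. Limma with voom quality weights called 61 (8.59% of all genes), which held all 9, and all 9 were among the 29.

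The count turned on TS-R replicate 1. Without it, 76 of 84 members (90.5%) lay wholly below WTS-R, where 17.1% of all genes did, and the median was -0.90. The edgeR test then called 12 members (2.13% of all genes lower), of which 1, Ndufa1, was among DESeq2's 9 (8.33% of the 12 and 11.1% of the 9). Without TS-R replicate 3 the median was -0.39, 29 members were still wholly lower (9.47% of all genes) and edgeR called 0 (0.0% of all genes lower). Without both, the median was -0.60 and edgeR called 4 members (0.38% of all genes lower): Cox6c, Ndufb5, Ndufc1 and Uqcrh. Without TS-R replicate 4 it called Atp5s, Cox7c, Ndufa1 and Ndufb4 (1.49% of all genes lower).

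**Figure D1:**
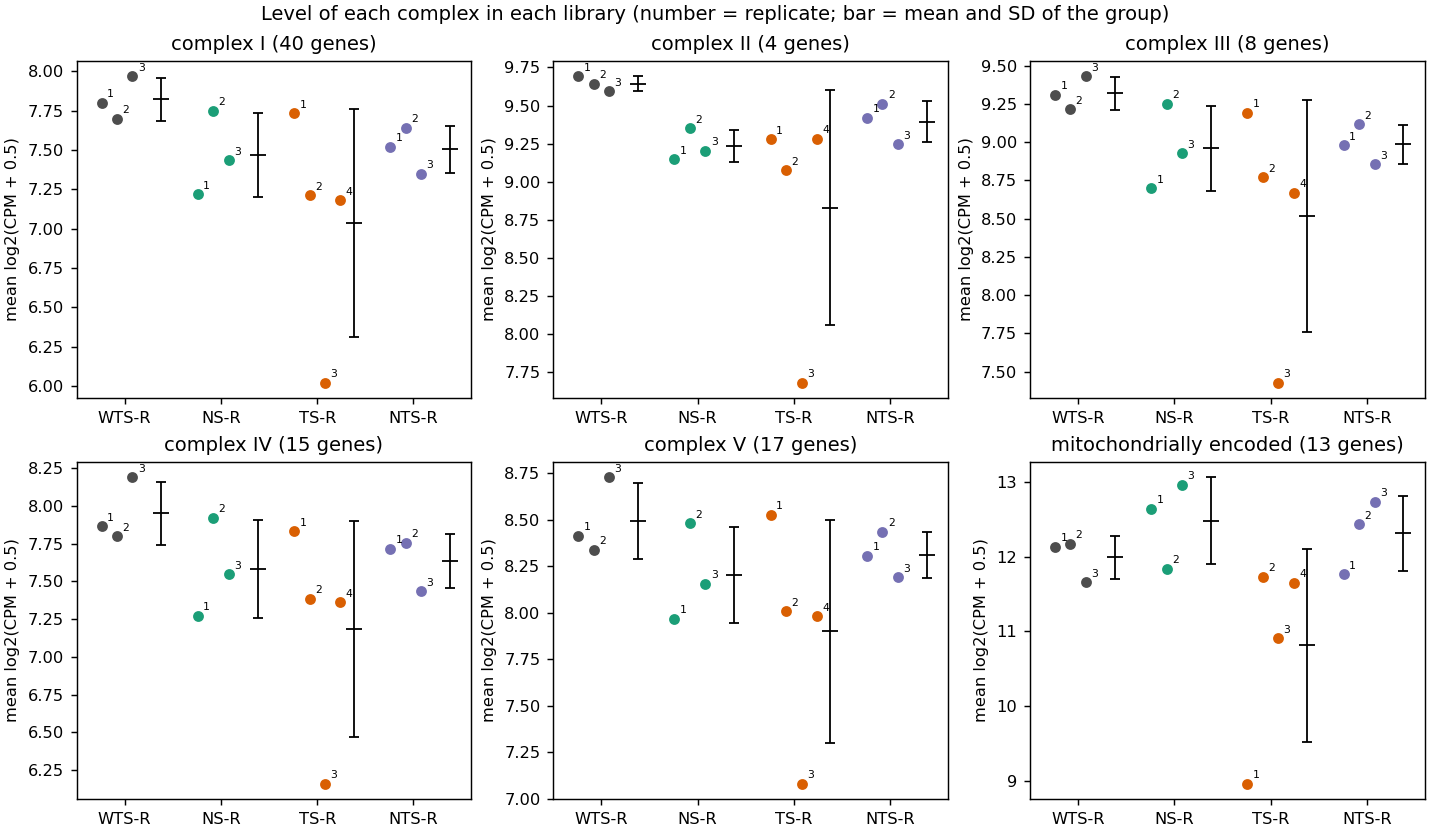
Mean log2(CPM + 0.5) of the tested members of each complex (vertical axis) in each library, by group, with the 13 mitochondrially encoded genes in the last panel; points are libraries numbered by replicate and bars show the group mean and SD. In all 5 nuclear panels TS-R replicate 3 is lowest and TS-R replicates 2 and 4 lie below every WTS-R library, while TS-R replicate 1 is within the WTS-R range for complexes I, IV and V.

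Averaged as mean log2(CPM + 0.5), the members stood at 8.17, 8.08 and 8.38 in WTS-R and at 7.61, 8.15 and 7.83 in NS-R. They stood at 8.12, 7.64, 6.47 and 7.62 in TS-R and at 7.94, 8.05 and 7.77 in NTS-R. Group means were 8.21 ± 0.15 (SD, n = 3) in WTS-R, 7.86 ± 0.27 (n = 3) in NS-R, 7.46 ± 0.70 (n = 4) in TS-R and 7.92 ± 0.14 (n = 3) in NTS-R. The order WTS-R, NTS-R, NS-R, TS-R held in all 5 complexes, but NTS-R and NS-R overlapped, and the TS-R libraries reached from below all others up into the WTS-R range. TS-R replicate 3 was the lowest of the 13 libraries for 81 of 84 members, as it was for 28.4% of all genes. Replicate 1 was above the mean of TS-R replicates 2 and 4 for 67 members and below it for 17, with differences from -1.51 (Ndufb4c) to 1.62 (Atp5e), so the excess in this library was not shared by all subunits.

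**Figure D2:**
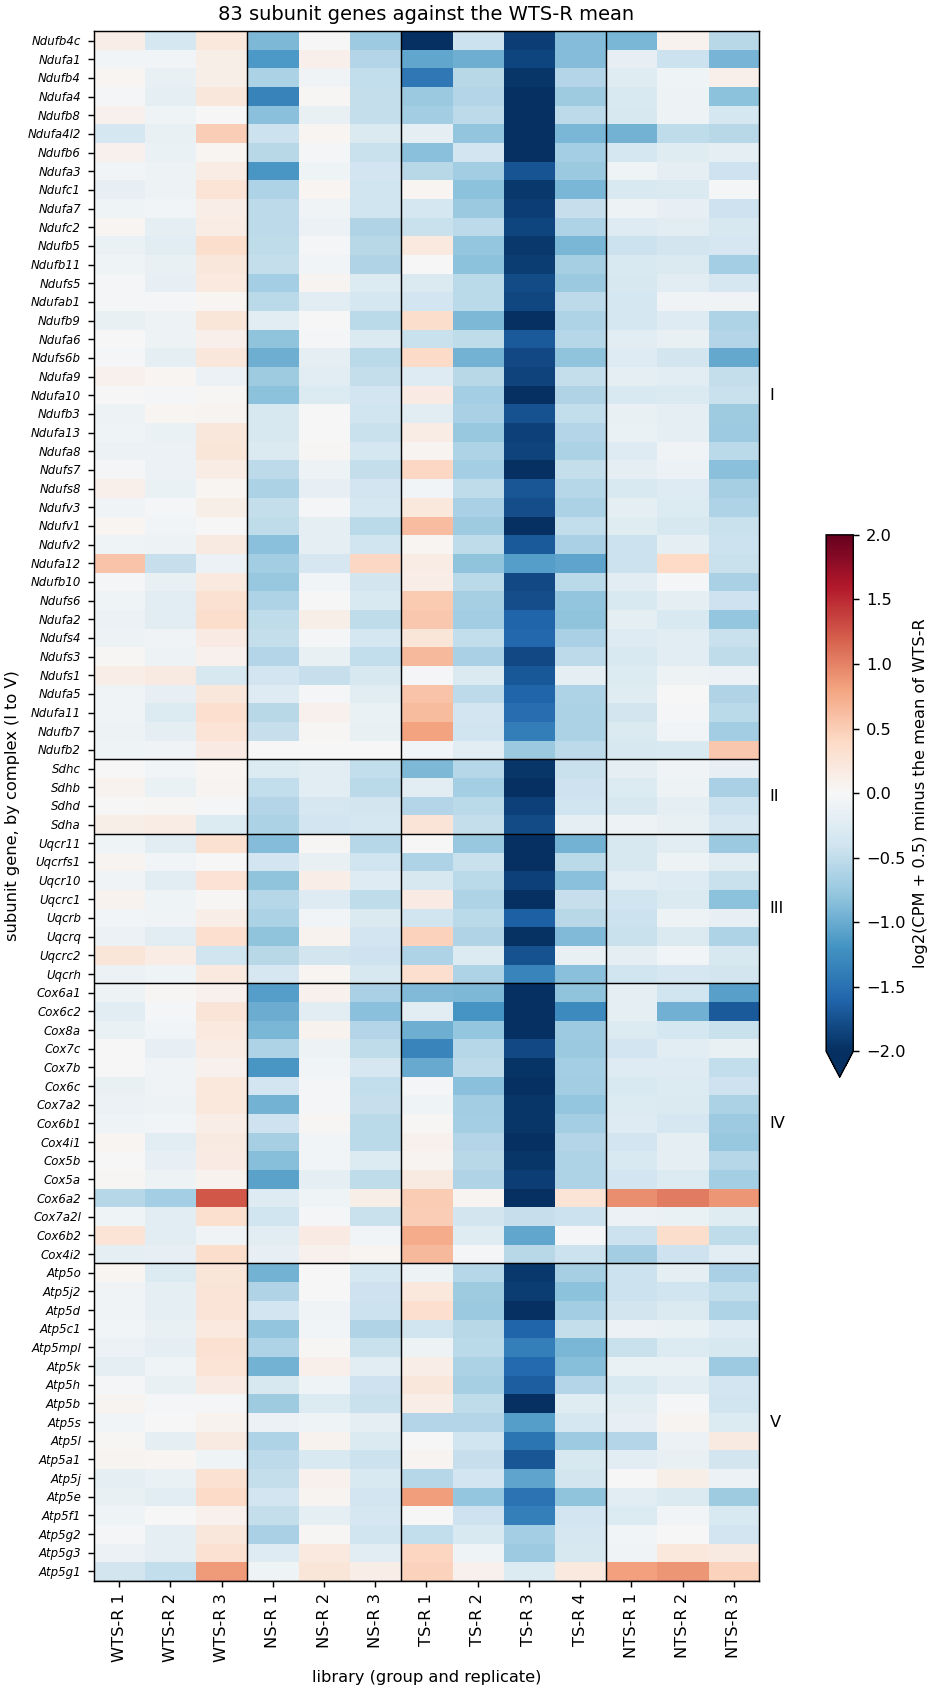
log2(CPM + 0.5) of 83 of the 84 tested members (rows, by complex) minus the WTS-R mean in each of the 13 libraries (columns); blue is lower, red higher, and values under -2 share the darkest blue. The TS-R replicate 3 column is blue throughout, the TS-R replicate 1 column is mixed, and Cox6a2 and Atp5g1 are the red rows in NTS-R.

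In complex I, the core subunits that carry flavin, iron-sulphur clusters and the quinone site had a median log2 fold change of -0.46 in TS-R against WTS-R over 7 genes. The remaining 33 tested members stood at -0.68. Limma with voom weights called 6 of the 7 and 25 of the 33 lower (8.59% of all genes). DESeq2 called 0 of the 7 and 3 of the 33 (1.97% of all genes), and edgeR called 0 of either (0.0%). The difference between these sets was not tested. Ndufa1, a small accessory subunit of the membrane arm, was at 294, 295 and 331 CPM in the WTS-R libraries, 139, 328 and 204 in NS-R, 148, 156, 84.9 and 167 in TS-R, and 272, 227 and 160.0 in NTS-R. All 4 TS-R libraries lay below WTS-R, including replicate 1, while NTS-R overlapped TS-R. The log2 fold change of Ndufa1 was -1.14 ± 0.31 (SE) with an edgeR FDR of 0.0691, and over the alternatives its FDR ranged from 0.00806 (DESeq2) to 0.245.

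Ndufb4, another accessory subunit, was at 164, 143 and 172 CPM in the WTS-R libraries, 102, 152 and 113 in NS-R, 58.6, 108, 40.9 and 106 in TS-R, and 134, 149.8 and 170.1 in NTS-R. TS-R lay wholly below both WTS-R and NTS-R, with replicates 1 and 3 lowest. Its log2 fold change against WTS-R was -1.03 ± 0.30 with an edgeR FDR of 0.0781 (0.0148 to 0.245 over the alternatives). The near-identical copy Ndufb4c, at 1.19 to 8.30 CPM, had the lowest value of all members, -1.33 ± 0.48 (edgeR FDR 0.131). How reads were divided between the copies is uncertain. Ndufa3 was at 233 to 279 CPM in WTS-R and 75.4 to 169.8 in TS-R, and did not overlap (log2 fold change -0.87, edgeR FDR 0.108).

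Among the core subunits, Ndufv1, which binds NADH and flavin, was at 771, 721 and 749 CPM in the WTS-R libraries, 527, 661 and 513 in NS-R, 1147, 458, 159 and 530.0 in TS-R and 634, 598 and 546 in NTS-R. TS-R replicate 1 was the highest of all 13 libraries and replicate 3 the lowest, and the log2 fold change against WTS-R was -0.38 ± 0.45 (edgeR FDR 0.654). Ndufs1, the large iron-sulphur subunit, was at 323 to 457 CPM in WTS-R and 124 to 395 in TS-R, which overlapped.

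Ndufab1, the mitochondrial acyl carrier protein, was at 241 to 254 CPM in WTS-R and at 188, 168, 69.0 and 171 in TS-R, without overlap (log2 fold change -0.72 ± 0.28, edgeR FDR 0.152). Ndufa4, named for complex I although its protein is now counted with complex IV, was at 904 to 1207 CPM in WTS-R and 252 to 692 in TS-R, also without overlap (-0.93 ± 0.37 on the log2 scale, edgeR FDR 0.169). Its paralogue Ndufa4l2, known as a hypoxia-responsive gene, was far lower, at 12.8 to 23.5 CPM in WTS-R and 3.33 to 14.3 in TS-R, and overlapped.

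Complex II separated WTS-R most cleanly from the other groups. Its mean level was 9.69, 9.64 and 9.59 log2(CPM + 0.5) in WTS-R, 9.15, 9.35 and 9.20 in NS-R, 9.28, 9.08, 7.68 and 9.28 in TS-R and 9.42, 9.51 and 9.25 in NTS-R. Every WTS-R library was above all 10 others. The membrane anchor Sdhc was at 488, 466 and 496 CPM in the WTS-R libraries, 402, 412 and 342 in NS-R, 259, 326, 125 and 355 in TS-R and 420.5, 459.6 and 429 in NTS-R. TS-R lay wholly below WTS-R and NTS-R, with a log2 fold change against WTS-R of -0.86 ± 0.28 (edgeR FDR 0.105). The other anchor, Sdhd, was at 525 to 541 CPM in WTS-R and 144 to 405 in TS-R (-0.74 ± 0.29 on the log2 scale, edgeR FDR 0.151), and the iron-sulphur subunit Sdhb at 806 to 925 and 189 to 751 (-0.72 ± 0.36, edgeR FDR 0.262). The flavoprotein Sdha, at 1489 to 2008 CPM in WTS-R and 2146 in TS-R replicate 1, was the 1 member of the complex that overlapped (-0.39 ± 0.37, edgeR FDR 0.558).

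In complex III, Uqcrb, an accessory subunit, was at 476, 469 and 542 CPM in the WTS-R libraries, 318, 474 and 403 in NS-R, 373, 341, 159 and 337 in TS-R and 368, 461 and 442 in NTS-R. TS-R lay below WTS-R in every library (log2 fold change -0.71 ± 0.27, edgeR FDR 0.149). The Rieske iron-sulphur protein Uqcrfs1 was at 627 to 673 CPM in WTS-R and at 423, 477, 159 and 449 in TS-R, also without overlap (-0.79 ± 0.31, edgeR FDR 0.155). The core proteins Uqcrc1 and Uqcrc2 overlapped. TS-R replicate 1 held the highest Uqcrc1 value of the series (1528 CPM), and the lowest WTS-R value of Uqcrc2 (446 CPM) lay below TS-R replicates 2 and 4.

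In complex IV, the lowest p was that of Cox7c, a small structural subunit. Its level was 487, 432 and 538 CPM in WTS-R, 315, 452 and 339.9 in NS-R, 193, 327, 138 and 290.0 in TS-R and 369, 411 and 436 in NTS-R. TS-R lay below WTS-R and NTS-R without overlap, and replicate 1 was the second lowest library. The log2 fold change against WTS-R was -1.03 ± 0.27 with an edgeR FDR of 0.0684 (0.00574 to 0.245 over the alternatives). Cox8a, also a small structural subunit, was at 756, 799 and 949 CPM in the WTS-R libraries, 443, 869 and 556 in NS-R, 422, 487, 196 and 503 in TS-R and 685, 650.3 and 607 in NTS-R, with a log2 fold change of -1.05 ± 0.32 (edgeR FDR 0.0845). TS-R was again wholly below WTS-R and NTS-R, and NS-R reached into the range of both other groups. Cox4i1, Cox5a, Cox5b and Cox7a2, which are also nuclear subunits around the catalytic core, overlapped. For them TS-R replicate 1 (2021, 473, 789.9 and 401 CPM in that order) was inside or above the WTS-R range.

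**Figure D3:**
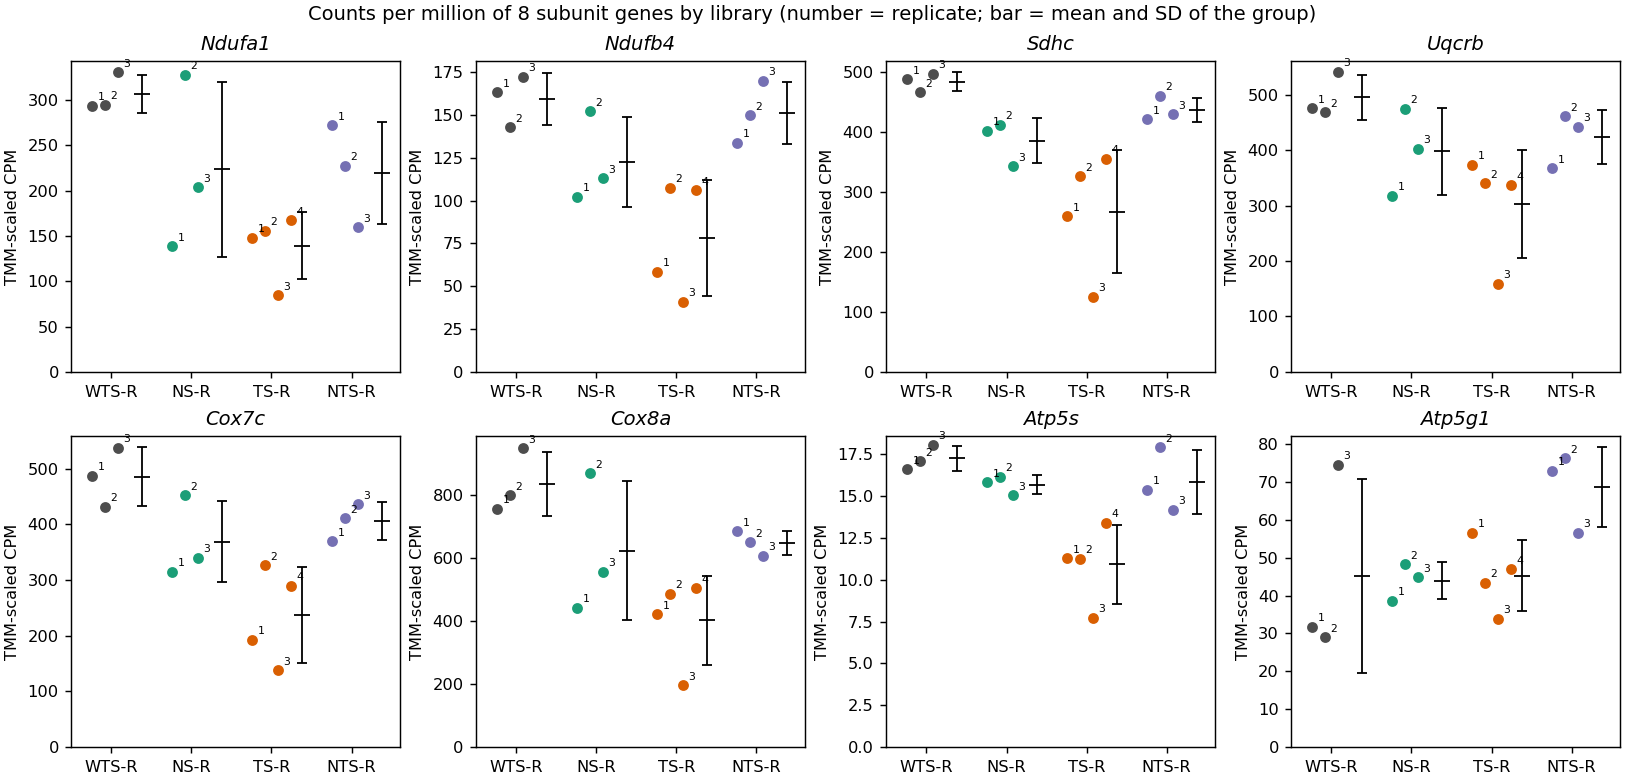
TMM-scaled CPM (vertical axis, from 0) of 8 members in each library by group; points are libraries numbered by replicate and bars show mean and SD. For Ndufb4, Sdhc, Cox7c, Cox8a and Atp5s the 4 TS-R points lie below all WTS-R and all NTS-R points, whereas Atp5g1 overlaps between TS-R and WTS-R.

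Several complex IV subunits come in isoform pairs. Levels of Cox6a1, the widespread isoform, were 1478, 1603 and 1674 CPM (WTS-R) against 857, 848, 309.8 and 907 (TS-R), without overlap (log2 fold change -1.12 ± 0.39, edgeR FDR 0.117). The heart and muscle isoform Cox6a2 was at 27.6, 25.5 and 97.8 CPM in the WTS-R libraries, 34.1, 38.6 and 44.7 in NS-R, 58.7, 42.9, 6.07 and 49.6 in TS-R and 79.0, 84.8 and 76.0 in NTS-R. Per kb it made up 1.61% to 9.56% of the pair. Skeletal muscle markers (8 of 8 tested) summed to 14.9 to 1736 CPM in WTS-R, 39.8 to 886 in NS-R, 11.3 to 10978 in TS-R and 305 to 2229 in NTS-R, with Myh4 at 0 in WTS-R replicate 1 and NS-R replicate 2. Their part in the Cox6a2 values was not tested. The muscle and brown fat isoforms left out of the members by name were the larger part of their pairs per kb. Cox7a1 was at 50.1% to 64.7% of the Cox7a1 and Cox7a2 total, and Cox8b at 55.2% to 85.4% of the Cox8b and Cox8a total. Undivided by length, Cox7a1 had a lower mean CPM than Cox7a2 in every group (385 against 428 in WTS-R). Mean Cox8b was above Cox8a in WTS-R (925 against 835 CPM) but not in NTS-R (634 against 647). The highest Cox8b share was in TS-R replicate 1. Cox4i2, the hypoxia-linked isoform, stayed at 0.504% to 1.70% of its pair. Cox7a2l, known for its role in joining complexes III and IV, was at 186 to 272 CPM in WTS-R and at 306, 169, 158 and 163 in TS-R.

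In complex V, the F1 head subunits Atp5a1 and Atp5b, which form the catalytic ring, overlapped between TS-R and WTS-R. Atp5b was at 5339, 5031 and 5049 CPM in the WTS-R libraries, 3136, 4250 and 3770 in NS-R, 5659, 3625, 1236 and 4367 in TS-R and 4406, 4987 and 3896 in NTS-R. TS-R replicate 1 was the highest library and replicate 3 the lowest. The coupling factor gene Atp5s is a complex V member here by its symbol, and RefSeq lists it as Dmac2l. Its level was 16.6, 17.1 and 18.1 CPM in the WTS-R libraries, 15.8, 16.2 and 15.1 in NS-R, 11.3, 11.3, 7.73 and 13.4 in TS-R and 15.4, 17.9 and 14.2 in NTS-R. TS-R lay below all 9 other libraries, with a log2 fold change against WTS-R of -0.66 ± 0.19 (edgeR FDR 0.0776, 0.00935 to 0.257 over the alternatives).

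The 3 genes of the c-ring, the rotating proton channel, encode the same mature protein and did not share 1 pattern. Atp5g1 was at 31.8, 29.0 and 74.6 CPM in the WTS-R libraries, 38.6, 48.4 and 44.9 in NS-R, 56.6, 43.4, 33.9 and 46.9 in TS-R and 73.0, 76.3 and 56.6 in NTS-R. WTS-R replicate 3 stood apart from the other WTS-R libraries, and the sign of the TS-R difference, 0.00 ± 0.30, rested on single libraries: it was -0.24 without WTS-R replicate 2 and 0.57 without WTS-R replicate 3. Atp5g2 was at 139 to 184 CPM in WTS-R and 98.2 to 128 in TS-R, without overlap (log2 fold change -0.46 ± 0.20, edgeR FDR 0.190). Atp5g3 was at 234 to 326 CPM in WTS-R and 160.4 to 356 in TS-R, and overlapped.

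As shares of all member counts, complex V took 29.7% ± 0.346 (SD, n = 3) in WTS-R and 32.0% ± 0.721 (n = 4) in TS-R, and complex IV 21.0% ± 0.842 and 19.0% ± 0.851. Complex I was at 29.0% in WTS-R and 28.8% in TS-R. The mean log2 level of complex I lay under that of complex V by 0.67 in WTS-R (-0.67 ± 0.08), and at -0.73 ± 0.01 in NS-R, -0.86 ± 0.13 in TS-R and -0.80 ± 0.03 in NTS-R. These differences between complexes were small beside the difference shared by all 5. Complex V shares did not overlap, at 31.0% to 32.6% in TS-R and 29.3% to 29.9% in WTS-R. Neither did complex IV shares (17.8% to 19.7% and 20.4% to 22.0%). Shares of complexes I, II and III overlapped. Complex I minus complex V was -1.06 to -0.79 in TS-R and -0.76 to -0.61 in WTS-R, without overlap. NTS-R lay above WTS-R in complex V share too (30.2% to 31.8%). These separations were not tested.

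NTS-R against TS-R asks what changes when diabetic donors also lack Nlrp3. The members lay higher in NTS-R by a median log2 fold change of 0.29 (-0.03 over all genes), with 77 positive (47.4% of all genes) and 7 negative. Complex medians were 0.28, 0.41, 0.39, 0.26 and 0.27 for I to V. In 17 of 84 members (20.2%) all 3 NTS-R libraries lay above all 4 TS-R libraries, as in 5.7% of all genes, and in 0 members below (6.83%). Among them were Ndufa3, Ndufab1, Ndufb4, Ndufb6, Ndufb8 and Ndufc2 of complex I, Sdhc, Uqcrfs1, Cox6a2, Cox7b, Cox7c and Cox8a, and Atp5c1, Atp5g1, Atp5j and Atp5s of complex V. No member passed an edgeR FDR of 0.05 (0.0% of all genes higher), 6 were higher at an unadjusted p under 0.05 (5.59%), DESeq2 called Ndufb4 (1.13% of all genes higher) and limma with voom weights called 3 (2.2%), Atp5s, Ndufa7 and Sdhc.

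Ndufb4 had a log2 fold change of 0.95 ± 0.30 in NTS-R against TS-R (edgeR FDR 0.121, 0.0392 to 0.366 over the alternatives). Cox7c was at 0.78 ± 0.27 (edgeR FDR 0.152), Sdhc at 0.71 ± 0.28 (edgeR FDR 0.196), Uqcrfs1 at 0.58 ± 0.31 (edgeR FDR 0.315) and Atp5s at 0.54 ± 0.19 (edgeR FDR 0.155). The highest value was that of Cox6a2, 1.03 ± 0.59 (edgeR FDR 0.363), and the lowest that of Cox4i2, -0.46 ± 0.32 (edgeR FDR 0.461). This comparison and TS-R against WTS-R share the 4 TS-R libraries. Without TS-R replicate 1 the median was 0.60 and 45 members were wholly higher (11.3% of all genes), and without TS-R replicate 3 the median was 0.10 and 17 were (7.02%). Without NTS-R replicate 3, 27 were (8.82%).

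**Figure D4:**
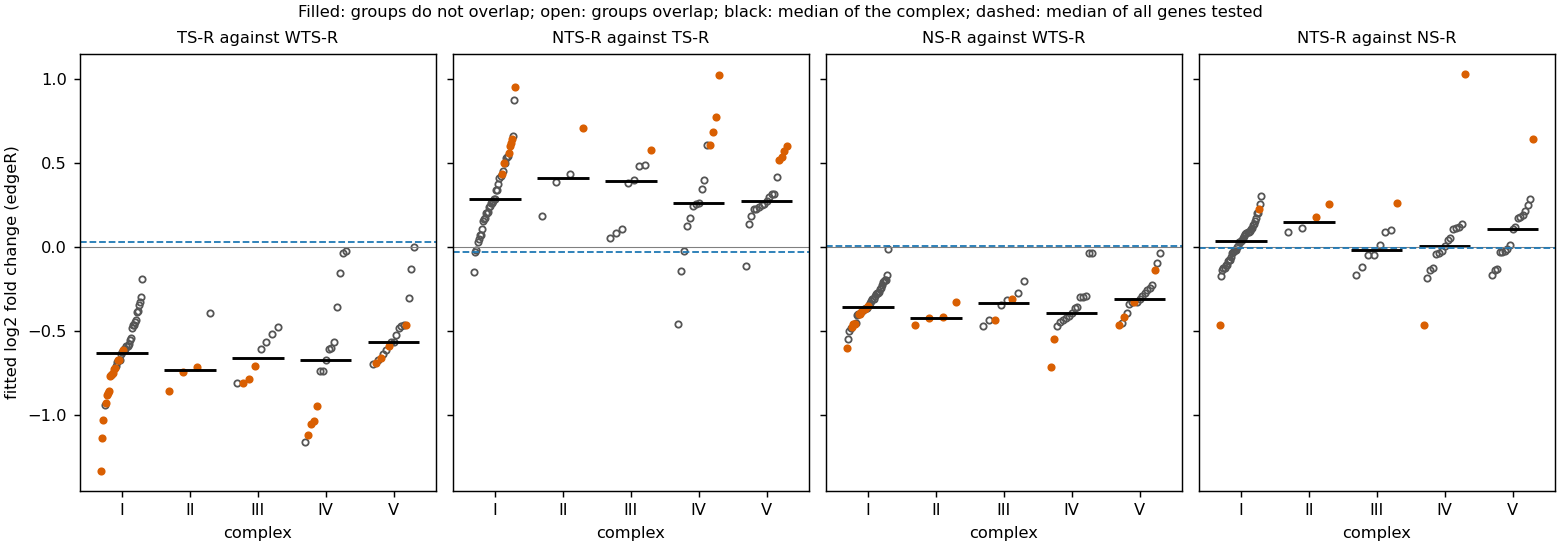
Fitted edgeR log2 fold changes (vertical axis) of the tested members by complex in 4 comparisons; filled points are members whose groups do not overlap, black lines are complex medians and the dashed line is the median of all genes. The points lie below 0 for TS-R and NS-R against WTS-R, mostly above 0 for NTS-R against TS-R and around 0 for NTS-R against NS-R.

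NS-R against WTS-R asks the same of donors without diabetes. All 84 members (49.1% of all genes) had a negative log2 fold change, from -0.71 for Cox6c2 to -0.01 for Ndufb2, with a median of -0.34 (0.01 over all genes). Complex medians were -0.35, -0.42, -0.33, -0.40 and -0.31 for I to V. In 22 members (26.2%) all NS-R libraries lay below all WTS-R libraries, as in 6.4% of all genes, and in 0 above (7.95%). All 4 complex II genes and 5 of the 7 complex I core genes were among them. No member passed an FDR of 0.05 in edgeR, DESeq2 or limma with voom weights, and 0 had an unadjusted edgeR p under 0.05, where 0.388% of all genes were lower (0.0% at FDR 0.05).

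The WTS-R libraries held Sdhd at 527, 541 and 525 CPM and the NS-R libraries at 354, 421 and 411, a log2 fold change of -0.42 ± 0.31 with an unadjusted edgeR p of 0.190. For Cox5a, which sits beside the catalytic core of complex IV, the values were 428, 391 and 439.7 CPM against 200.2, 365 and 295 (-0.55 ± 0.39). Neither gene overlapped. Ndufa3 and Atp5g2, the complex I and V members of lowest p (-0.48 ± 0.31 and -0.33 ± 0.21), did overlap, since NS-R replicate 2 was at the WTS-R level. The count rested on that library. Without it 74 members (88.1%) lay wholly below WTS-R, where 17.2% of all genes did, with a median of -0.51. Without WTS-R replicate 2 the count was 38 (10.7% of all genes), and without NS-R replicate 1 it was 22 with a median of -0.21 (8.59%). NS-R replicates 1 and 2 also held airway transcripts. Scgb1a1, a club cell secretory gene, was at 2252 and 4689 CPM there and at 0 in replicate 3, and the 8 airway markers summed to 6255 and 12583 CPM there against 2.45 to 5.40 in the 11 other libraries. Against the WTS-R mean of each member, the median log2 difference was -0.40 in NS-R replicate 3, which lacks them, -0.56 in replicate 1 and -0.04 in replicate 2, and 80, 84 and 52 of the 84 members were under that mean. The WTS-R libraries 1, 2 and 3 had medians of -0.05, -0.12 and 0.17, with 57, 75 and 10 members under it. These libraries make up that mean, so their differences from it balance. Their counts and medians therefore do not compare evenly with those of NS-R, and no conclusion is drawn from them.

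NTS-R against NS-R, which compares diabetic with other donors when both lack Nlrp3, gave a median of 0.04 (-0.01 over all genes), with 49 members positive (49.0% of all genes) and 35 negative. In 6 members NTS-R lay wholly higher (7.03% of all genes): Ndufs1, Sdha, Sdhc, Uqcrc2, Cox6a2 and Atp5g1. In 2, Ndufa4l2 and Cox4i2, it lay wholly lower (8.2% of all genes). The share of members wholly higher, 7.14%, was near that of all genes, and the share wholly lower, 2.38%, was below it. Cox6a2 had the highest log2 fold change, 1.03 ± 0.65 (edgeR FDR 0.943), followed by Atp5g1 at 0.64 ± 0.32 (edgeR FDR 0.840), and Ndufa4l2 the lowest, -0.47 ± 0.41 (edgeR FDR 0.999). No member passed the FDR in edgeR (0.0%), DESeq2 or limma with voom weights, and 0 had an unadjusted p under 0.05 (1.25% of all genes higher). DESeq2 called 0.0232% of all genes higher. Without NS-R replicate 1 the median was -0.11, and without NS-R replicate 2 it was 0.20 with 26 members wholly higher (12.6% of all genes).

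The difference of the 2 diabetes contrasts was tested as an interaction, (NTS-R minus NS-R) minus (TS-R minus WTS-R). Its median over the members was 0.66 on the log2 scale (-0.06 over all genes), with 82 positive (46.5% of all genes) and 2 negative. No member passed an edgeR FDR of 0.05 (0.0%), 13 were positive at an unadjusted p under 0.05 (4.7% of all genes), DESeq2 called 0 (0.55% of all genes) and limma with voom weights called 14 (3.6% of all genes). The smallest p was that of Ndufb4, 1.33 ± 0.44 (edgeR FDR 0.164, 0.0353 to 0.336 over the alternatives). Cox7c was at 1.17 ± 0.40 (edgeR FDR 0.173), Sdhc at 1.04 ± 0.42 (edgeR FDR 0.219) and Atp5j, of the peripheral stalk, at 0.80 ± 0.32 (edgeR FDR 0.220). The median was 0.46 without TS-R replicate 3 and 0.92 without TS-R replicate 1.

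Other genes of the pathway lay on the same side in TS-R against WTS-R. Of 45 tested assembly factors 42 were negative (47.6% of all genes), with a median of -0.42. At an unadjusted edgeR p under 0.05, 13 of them were lower (7.07% of all genes). All 15 electron carrier genes (median -0.48), all 13 citric acid cycle genes (-0.60) and all 13 outer membrane and import genes (-0.33) were negative, where 47.6% of all genes were. None of these passed the edgeR FDR, as no gene of the table did (0.0% lower). These medians include TS-R replicates 1 and 3. In mean log2(CPM + 0.5), TS-R replicate 1 was above every WTS-R library for the complex I assembly factors (5.22). It was within the WTS-R range for the import genes (7.41), and below it for the electron carriers (6.63) and citric acid cycle genes (9.62). Tmem70, an assembly factor of complex V, was at -0.84 ± 0.21 (edgeR FDR 0.0624), and Cox18, which inserts a complex IV subunit into the membrane, at -0.68 ± 0.18 (edgeR FDR 0.0667). Among 11 regulators 8 were negative. Ppargc1a, the coactivator of mitochondrial biogenesis, was at -1.89 ± 0.76 (edgeR FDR 0.171) with overlapping groups, whereas Nrf1 was at 0.51 ± 0.22 (edgeR FDR 0.193) with TS-R wholly higher.

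The mitochondrially encoded subunits did not follow the nuclear ones library by library. Their share of all counts was 25.5%, 27.1% and 21.1% in WTS-R, 27.8%, 22.5% and 36.7% in NS-R, 6.11%, 22.7%, 15.3% and 22.5% in TS-R and 23.5%, 29.0% and 33.4% in NTS-R. TS-R replicate 1, where nuclear members took their highest share, had the lowest mitochondrial share. The mean log2 level of nuclear minus mitochondrially encoded subunits was -0.83 in that library, against -3.78 ± 0.43 (SD, n = 3) in WTS-R. In NS-R against WTS-R the 13 mitochondrially encoded genes were all positive (median 0.32) while all 84 nuclear members were negative. In TS-R against WTS-R both were negative (median -0.89 for the mitochondrially encoded genes).

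**Figure D5:**
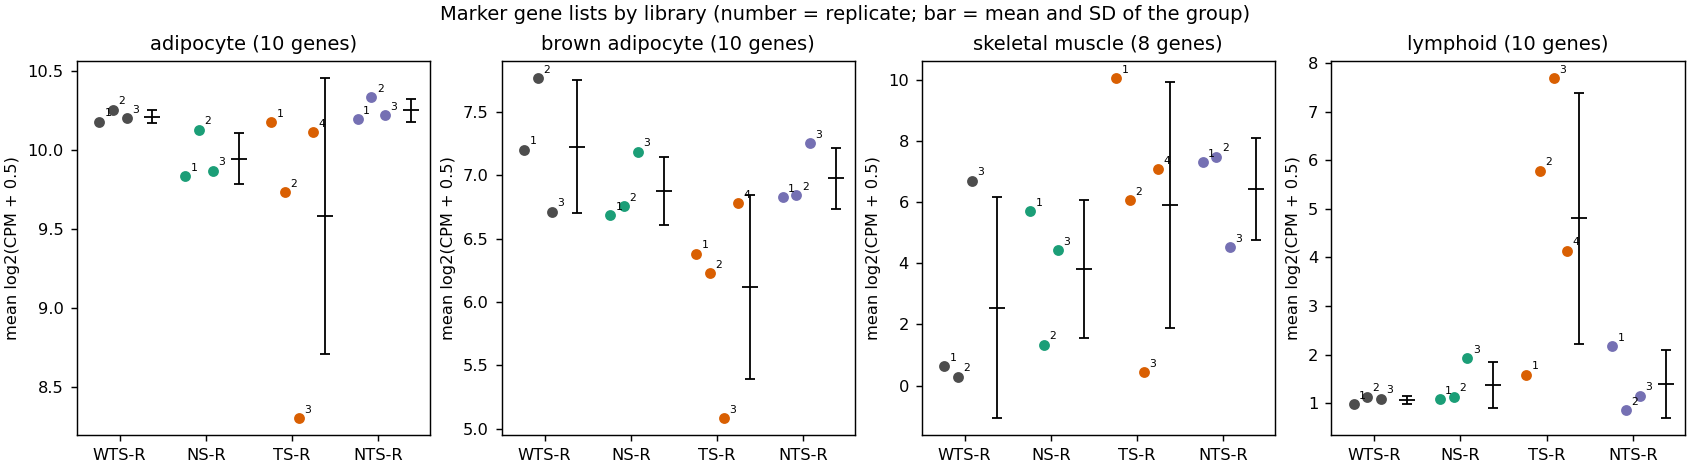
Mean log2(CPM + 0.5) of 4 marker gene lists (panels) in each library by group; points are libraries numbered by replicate and bars show mean and SD. TS-R replicate 3 has the lowest adipocyte and brown adipocyte and the highest lymphoid level, and TS-R replicate 1 the highest skeletal muscle level.

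Marker lists of other cell types had medians away from 0 in TS-R against WTS-R, in both directions. Median log2 fold changes were 5.14 for the lymphoid markers (10 of 10 positive) and 2.37 for the skeletal muscle markers (8 of 8 positive). The cardiac muscle markers stood at -0.62 (7 of 8 negative). TS-R lay wholly above WTS-R for 7 lymphoid and 0 skeletal muscle markers (8.96% of all genes). It lay wholly below for 1 cardiac muscle marker (8.15% of all genes). The edgeR FDR was 0.0624 for the lymphoid markers, 0.158 to 0.669 for skeletal muscle and 0.176 to 0.979 for cardiac muscle. The 10 lymphoid markers summed to 27.6 to 32.1 CPM in WTS-R, 31.5 to 55.3 in NS-R, 41.1, 677, 3294 and 235 in TS-R and 22.9 to 70.2 in NTS-R, with Glycam1 at 0 in some libraries of the other groups. The TS-R libraries ranked by lymphoid sum from replicate 1 up to 4, 2 and 3, and their mean member level was 8.12, 7.62, 7.64 and 6.47 in that order. The brown adipocyte markers (10 of 10 tested, Cox7a1 and Cox8b among them) had a median log2 fold change of -0.92 in TS-R against WTS-R and the adipocyte markers -0.58. Relative to the adipocyte markers, the members stood at -2.0 ± 0.17 log2 units in WTS-R, -2.08 ± 0.12 in NS-R, -2.12 ± 0.28 in TS-R and -2.33 ± 0.11 in NTS-R, and at -1.83 in TS-R replicate 3. On that scale TS-R and WTS-R overlapped, and the difference of NTS-R from TS-R was in the other direction from the one above. Relative to the outer membrane and import genes the members stood at 0.84 ± 0.20 in WTS-R and 0.76 ± 0.15 in NS-R. TS-R was at 0.50 ± 0.38 (-0.04 in replicate 3) and NTS-R at 0.66 ± 0.13. WTS-R stayed highest and TS-R lowest, but NS-R was above NTS-R, unlike in the unscaled levels, and the groups overlapped. Set against the citric acid cycle genes, the members stood at -1.65 ± 0.30 in WTS-R and -1.63 ± 0.26 in TS-R. On that scale NS-R was at -1.56 ± 0.17 and NTS-R at -1.70 ± 0.03, so the unscaled order was not kept, and the groups overlapped. Relative to the brown adipocyte markers they stood at 0.98 ± 0.67 in WTS-R, 1.35 ± 0.37 in TS-R and 0.95 ± 0.38 in NTS-R, so TS-R had the highest mean of these, also with overlap. Skeletal muscle markers were highest in TS-R replicate 1, the library with the highest member share. Cardiac muscle markers (8 of 8 tested) summed to 1028 to 1717 CPM in WTS-R and 1281 to 3365 in NTS-R. In the TS-R libraries they summed to 1313, 1041, 262 and 1020 CPM. The part of these cell types in the member values was not tested.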

How the data were processed

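Counts per gene were made by the authors with HISAT2 and featureCounts, per the submitters' processing notes. Versions, genome build, annotation and strand use were not given in the sources used here. Libraries were paired-end mRNA libraries (ABclonal kit) from TRIzol-extracted RNA, per the labels' protocols. Of 34013 identifiers in the deposited raw count table, 33302 matched a mouse symbol and 711 did not.

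From the deposited counts, edgeR 4.0.16 (R 4.3.3) fitted 1 quasi-likelihood model with 1 coefficient per group over all 13 libraries, with TMM scaling and filterByExpr, which left 17270 genes. P-values were adjusted by Benjamini-Hochberg over all of them, with a threshold of 0.05. The common biological coefficient of variation was 0.389. DESeq2 1.42.0, limma 3.58.1 (voomWithQualityWeights), other filters, each library left out, 2 libraries left out together, and a replicate block were alternatives. The procedure was tested on simulated data, with the same dispersion for every gene and no library set apart. It therefore does not cover a spread like that of the TS-R libraries. Levels are TMM-scaled CPM, averaged as log2(CPM + 0.5), and ± after a log2 fold change is its standard error. For edgeR this was derived as the absolute log2 fold change divided by the square root of the quasi-likelihood F statistic. Levels per kb use GENCODE M21 exon unions, whose match to the authors' annotation is unknown. Groups do not overlap where every library of one group is above every library of the other. No 2 libraries of a group were duplicates (lowest chi-square per degree of freedom 35.98). Same-numbered libraries of different groups had correlated deviations over 0.1 in 6 of 18 pairs (-0.301 to 0.306), so the numbers were not taken as pairs.

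The members and the gene lists were chosen with earlier results of these data known, so lists are described by counts and medians, with no test. Members were named for the smallest p per complex and comparison, for the highest and lowest log2 fold change per comparison, or for their role; 1 that the rule names is not reported here, but stays in all counts and medians. Members outside that rule (such as Ndufb5, Cox7b and Uqcrh, or all those listed by a count) were named after their values were seen. Promoter windows are from RefSeq (GRCm38.p6).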

Additional observations from a re-analysis of the deposited data

Results flagged for a closer look

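Dixon's outlier test at the 95% level was applied to the TS-R values of the named members and the complex levels. It marked 7 of 43 tests, and chance marks about 1 in 20. In 6 of the 7 the library that stood apart was TS-R replicate 3, as the lowest. These were the mean level of complex II (7.68 log2(CPM + 0.5)), Ndufa4 (252 CPM), Ndufab1 (69.0 CPM), Uqcrb (159 CPM), Uqcrfs1 (159 CPM) and Cox6a1 (309.8 CPM). In the other, Cox7a2l, TS-R replicate 1 was the highest, at 306 CPM, where replicates 2, 3 and 4 were at 169, 158 and 163 CPM. The tests share libraries and are not independent.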

How the results depend on the processing

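The median log2 fold change of the members, and of each complex, moved by less than the pooled within-group SD under every alternative run. That SD, of the mean log2 level, was 0.389 for all members and 0.348 to 0.416 by complex, TS-R replicates 1 and 3 included. It is larger than the size of the medians of NTS-R against TS-R (0.29) and NS-R against WTS-R (-0.34), so it cannot show that these are stable. For complex IV in NTS-R against TS-R the median fell from 0.26 to 0.02 without TS-R replicate 3. The member median of NTS-R against NS-R, near 0, turned sign. Leaving out 1 library at a time moved the member median from -0.90 to -0.39 (TS-R against WTS-R), 0.10 to 0.60 (NTS-R against TS-R), -0.51 to -0.21 (NS-R against WTS-R), -0.11 to 0.20 (NTS-R against NS-R) and 0.46 to 0.92 (interaction).

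Counts past the threshold did depend on the processing, and the cause was not tested. In edgeR as fitted above, 0 genes passed in each comparison. For TS-R against WTS-R, all genes called numbered 1906 in DESeq2, 3816 in limma with voom weights, 889 with no filter and 694 without both TS-R replicates 1 and 3, and members called 9 in DESeq2, 61 in limma and 4 without both. For NTS-R against TS-R they numbered 1429, 1638, 404 and 343 genes, and 1 and 3 members in DESeq2 and limma. For NS-R against WTS-R, DESeq2 called 190, limma 14 and the unfiltered fit 138 genes. For NTS-R against NS-R these were 208, 12 and 126, with 5 in a fit of only the 2 groups and 3 without both. For the interaction they were 1086, 1872, 92 and 150 genes without both, and 14 members in limma.

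Leaving out 1 library at a time gave 0 to 1906 genes and 0 to 12 members for TS-R against WTS-R (highest without TS-R replicate 1), 0 to 1018 genes for NTS-R against TS-R (without TS-R replicate 1), 0 to 503 for NS-R against WTS-R and 0 to 563 for NTS-R against NS-R (both without NS-R replicate 3), and 0 to 517 for the interaction (without TS-R replicate 1).

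A replicate block, although the numbers do not pair the libraries, gave 784 genes and 1 member (Ndufb4, -1.29, edgeR FDR 0.0479) for TS-R against WTS-R, 76 genes for NTS-R against TS-R and 19 for the interaction.

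Signs of single members were followed only for the 33 pairs of a member and a comparison named for their p or their highest or lowest fold change, and turned for 2 near 0. Atp5g1 in TS-R against WTS-R was 0.0028 in the fit of all libraries, -0.0079 without both and -0.24 to 0.57 with 1 library left out. Ndufb2 in NS-R against WTS-R was -0.01 in that fit, 0.0399 in limma, 0.0099 in a fit of the 2 groups, 0.013 with mitochondrially encoded genes left out, and -0.0672 to 0.0661 with 1 library left out. The alternative without mitochondrially encoded genes and the non-overlap counts with a library left out were chosen after seeing the data. Whether depth limits the precision was not tested.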
